A study of Gallus gallus with 2 samples.

Results

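The ADAM and ADAMTS genes were followed in single cells of the embryonic chick cerebellum. All entries of the gene table whose symbol begins with ADAM were taken, which gave 35 genes of 30108. These were the membrane-bound ADAMs, the secreted ADAMTS proteases and the ADAMTS-like proteins. Each of the 35 had at least 1 unique molecular identifier (UMI, the tag that marks 1 captured transcript), and 29 had 100 or more. Below 100 UMIs were ADAMTSL5 with 7, ADAM20L with 9, ADAM8 with 16, ADAMTS18 with 65, ADAMTS4 with 88 and ADAM28 with 99. Together the family took 202582 UMIs, or 0.200% of all UMIs.

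The tissue was cerebellum of wild-type chicken embryos, untreated as far as the labels say, and the stages were E6, E7, E8 and E9, where E gives the embryonic day. The dissected tissue was pooled, and polyadenylated RNA was barcoded with the Evercode WT Mini kit, in which fixed cells are split over wells and pooled again. Each stage filled 3 of 12 first-round wells, and the barcoded cells were divided into 2 sublibraries, which are technical splits. No label ties a well to an embryo, so each stage was read as 1 pool. No test between stages or cell classes could be made, intervals in brackets are exact 95% Poisson intervals for counting error, and SDs are over the 2 sublibraries (n = 2).

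ADAM proteases sit in the cell membrane and shed the outer parts of other membrane proteins, among them Notch receptors, their ligands and growth factor precursors. ADAMTS proteases are secreted and bind the extracellular matrix, where different members cut the large proteoglycans of brain matrix, trim procollagens or act on fibrillin microfibrils. The ADAMTS-like proteins share the matrix-binding parts but lack the protease domain. These roles are known mainly from mouse and human. In the developing brain the family is known for its part in Notch signalling, in the breakdown of reelin and in matrix turnover.

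The tables held 15190 cells, of which 15189 were kept, with 101254790 UMIs. In the order E6 to E9 the median cell had 3025.5, 6047, 3310 and 3172 UMIs. Levels are given as CPM, the UMIs of a gene per 1000000 UMIs of the same cells. Genes of the W chromosome, which only female birds carry, together had 2.81, 160, 2.19 and 63.6 CPM in the same order, so the sex mix differed between the pools, and E8 is set beside E9 where stages are compared. The sublibraries shared 896 cell barcodes.

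Cells were assigned to classes by marker genes, and cells that met no gate (7463) or several (1862) stayed out. The classes held 1965 Purkinje-like, 752 granule-lineage-like, 1221 radial-progenitor-like, 949 PAX2-interneuron-like, 504 glutamatergic-nuclear-like, 75 endothelium-like, 281 mural-like and 69 microglia-like cells. The kept cells were also put into 29 clusters that were made without any ADAM gene. A cluster is called by the gate its cells met most often. That gate had to hold at least 15% of the cells and 1.5 times the share of the second gate. In clusters under 100 cells it had to hold 50%. A name therefore need not describe most cells of a cluster, since the naming gate held 19.9% of cluster 9 and 34.4% of cluster 3. Markers that no gate used were checked. FOXP2 stood at 6124 CPM in Purkinje-like cells against 3002 in all cells, GLI3 at 1680 CPM in radial-progenitor-like cells against 602, and PECAM1 at 858 CPM in endothelium-like cells against 88.5. The microglial genes C1QA and C1QC had no UMI in any class, while HAVCR1 stood at 74.7 CPM in microglia-like cells. FLT1, an endothelial marker, stood at 3462 CPM in mural-like and 2672 CPM in endothelium-like cells, which goes against the name of the first, so mural-like means only the cells that passed that gate.

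Most members differed between cell classes. Among the 29 genes with 100 or more UMIs, 27 differed at least 4-fold between the highest and lowest of the 8 classes, where 55.3% of all genes past the same minimum did so. The median range was 13.3-fold over the 29 members and 4.54-fold over all genes. Over the 5 neural classes alone 18 of 29 did so, beside 25.7% of all genes. ADAM17 and ADAM20 were the 2 members that stayed under 4-fold. Mural-like cells held the highest level of 10 members, granule-lineage-like and radial-progenitor-like cells of 6 each, and Purkinje-like cells of 2. No share over all genes is available for these places, so they are not read as a trait of the family. Of all genes 18.0% were at least 2-fold above other cells in mural-like cells and 2.01% in Purkinje-like cells.

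**Figure D1:**
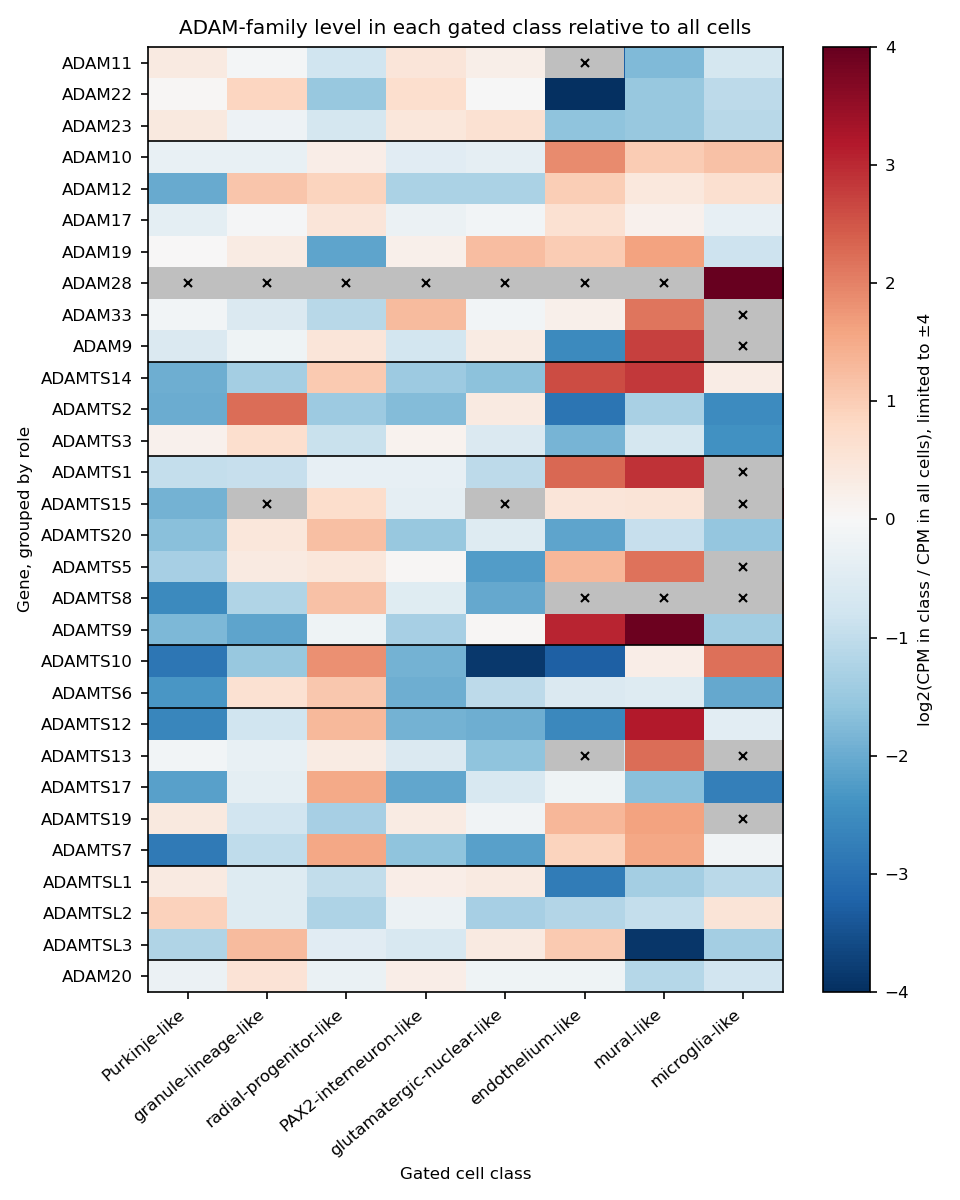
Each row is 1 gene and each column 1 gated class; the colour gives log2 of the CPM in the class over the CPM in all cells, limited to ±4, and grey squares with a cross hold fewer than 3 UMIs. ADAM28 stands out in microglia-like cells, ADAMTS9 in mural-like and endothelium-like cells, and ADAM22 is lowest in endothelium-like cells.

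The 3 neural ADAMs without protease activity had their highest levels in neuronal classes and their lowest in endothelium-like cells. None of the 3 was 2-fold above other cells in any neuronal class. ADAM22, ADAM23 and ADAM11 lack the residues for catalysis and bind the secreted LGI proteins at synapses and on axons. ADAM22 (chromosome 2, 20758018 to 20888911, GRCg7b), the member with the most UMIs at 36214, stood at 646 CPM [622 to 671] in granule-lineage-like cells and 568 CPM [547 to 590] in PAX2-interneuron-like cells. Purkinje-like cells held 369 CPM [359 to 379] and glutamatergic-nuclear-like cells 355 CPM [334 to 377], and these neighbouring levels had overlapping intervals. Radial-progenitor-like cells, at 126 CPM [118 to 134], and mural-like cells, at 124 CPM [106 to 145], were lower, and endothelium-like cells were lowest at 13.0 CPM [6.91 to 22.2]. Erythroid-like cells, 48 cells of low depth that served as a background, read 357 CPM of ADAM22 from 30 UMIs, close to the 358 CPM of all cells, and levels in the small classes are read beside that value.

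ADAM23 ran from 319 CPM in glutamatergic-nuclear-like, 284 CPM in PAX2-interneuron-like and 272 CPM in Purkinje-like cells down to 68.9 CPM in endothelium-like cells. ADAM11 had the same low end, with 2 UMIs in endothelium-like cells, and reached 39.9 CPM in PAX2-interneuron-like and 36.8 CPM in Purkinje-like cells. The granule lineage had the highest ADAM22 level and the lowest ADAM23 and ADAM11 levels of the 4 neuronal classes. Within the granule lineage, ADAM11 stood at 11.4 CPM [6.36 to 18.7] in dividing cells and 37.2 CPM [29.4 to 46.5] in non-dividing cells, a log2 difference of -1.71 ± 0.10 (SD, n = 2). Dividing cells were those with at least 2 of 4 mitotic genes. Of 752 granule-lineage-like cells 201 were dividing and 416 non-dividing, with medians of 5490 and 4190 UMIs. Of 1221 radial-progenitor-like cells 456 were dividing and 518 non-dividing, with medians of 6615 and 4877 UMIs. The remaining cells were in neither group.

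With stage, ADAM22 was higher from E7 on. Over all cells it stood at 185, 362, 411 and 432 CPM from E6 to E9, and the 3 wells of E6 lay between 179 and 198 CPM while those of E9 lay between 418 and 446. The 2 groups of wells did not overlap, and E9 was 2.34-fold above E6 (log2 1.23 ± 0.13, SD, n = 2). ADAM23 moved less, from 160 to 214 CPM or 1.33-fold, with all E9 wells above all E6 wells. ADAM11 varied between wells of 1 stage, from 8.54 to 30.4 CPM at E8, and its E6 and E9 wells overlapped.

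Within PAX2-interneuron-like cells ADAM22 was higher at every later stage than at E6. Its levels in stage order were 189, 511, 775 and 693 CPM, with [140 to 248] for the first and [640 to 750] for the last, and the log2 change was 1.88 ± 0.11. ADAM23 went from 181 CPM [134 to 240] to 447 CPM [404 to 493] in the same cells, log2 1.30 ± 0.46. In Purkinje-like cells ADAM22 was at 244, 385, 323 and 314 CPM, under the 2-fold limit, and ADAM23 at 202, 274, 323 and 396 CPM. Whether the interneuron and Purkinje-like courses differ was not tested. The cells behind these stage values came from different clusters. Of the 75 PAX2-interneuron-like cells at E6, 29 lay in cluster 3, a Purkinje-like cluster, 15 in cluster 0, a glutamatergic-nuclear-like one, and 14 in the PAX2-interneuron-like cluster 9, while 140 of 223 at E9 lay in the PAX2-interneuron-like cluster 11. Stage and this change in cell make-up cannot be told apart in the ADAM22 and ADAM23 values, nor for the other members followed by stage in PAX2-interneuron-like cells.

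LGI1 and LGI2, ligands of these ADAMs, were highest in radial-progenitor-like cells, both at 38.2 CPM, where ADAM22 itself was low. In those cells LGI1 stood at 17.8 CPM at E6 and 105 CPM at E9, and LGI2 at 25.5 and 55.1 CPM. The radial-progenitor-like cells of E6 and E9 lay mostly in different clusters, so stage and cluster cannot be told apart for LGI1 and LGI2.

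**Figure D2:**
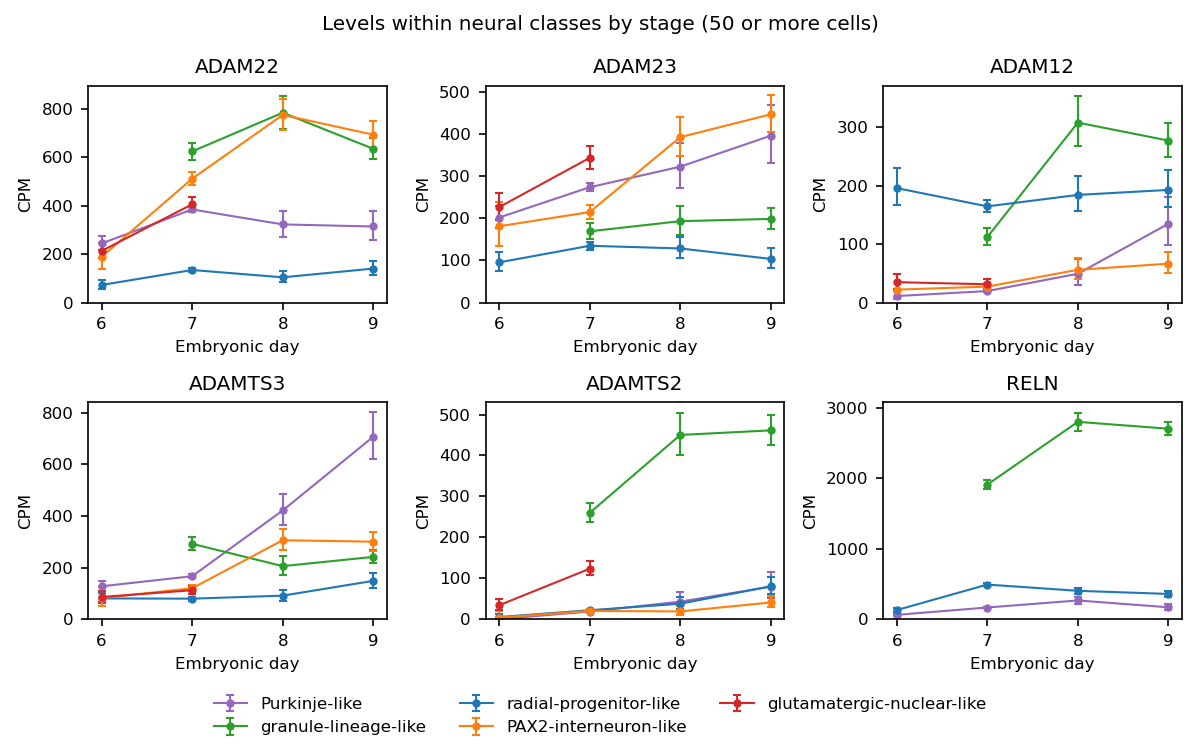
Each panel shows 1 gene in CPM against embryonic day within the neural classes, with bars for 95% Poisson intervals; classes with fewer than 50 cells at a stage are left out, and RELN is drawn for 3 classes. ADAM22 in PAX2-interneuron-like cells goes from 189 to 693 CPM and ADAMTS3 in Purkinje-like cells from 127 to 708 CPM.

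Of the shedding proteases, ADAM10 had its highest level in endothelium-like cells, ADAM9 and ADAM19 in mural-like cells and ADAM12 in the granule lineage. ADAM10 (chromosome 10, 6952500 to 6996045), which cuts Notch and cadherins, stood at 578 CPM [532 to 627] in endothelium-like cells, 356 CPM [283 to 442] in microglia-like cells and 320 CPM in mural-like cells. The 5 neural classes held between 114 and 188 CPM. Endothelium-like cells were 3.78-fold above all other cells (log2 1.92 ± 0.08), and microglia-like cells 2.27-fold (log2 1.18 ± 0.16). TSPAN14, a tetraspanin that carries ADAM10 to the cell surface, was also highest in endothelium-like cells, at 484 CPM against 17.6 to 92.7 CPM in the other 7 classes.

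ADAM17 (chromosome 3, 95904091 to 95936588), the sheddase of growth factor and cytokine precursors, was the most even member past the minimum, with a 2.02-fold range over the 8 classes. Its stage values over all cells were 103, 105, 104 and 101 CPM, with wells from 101 to 104 at E6 and 98.5 to 104 at E9, so the wells overlapped.

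ADAM12 (chromosome 6, 33362379 to 33543614), a sheddase of growth factor precursors, was high in the granule lineage at 200 CPM [186 to 214], and at 173 CPM in radial-progenitor-like and 184 CPM in endothelium-like cells. Purkinje-like cells held 22.8 CPM, but this was an average over stages that differed. By stage its level there was 11.2, 19.7, 49.3 and 135 CPM, with [5.95 to 19.1] for E6 and [98.9 to 180] for E9. Its log2 change from E6 was 3.60, with 3.09 in sublibrary 1 and 4.57 in sublibrary 2, from 13 and 46 UMIs. The Purkinje-like cells of E6 and E9 lay mostly in different clusters, so stage and cluster cannot be told apart for ADAM12. In the granule lineage it went from 112 CPM at E7 to 308 at E8 and 277 at E9, log2 1.31 ± 0.26 from E7 to E9, while radial-progenitor-like cells stayed under a 2-fold change.

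ADAM9, another sheddase, stood at 306 CPM [277 to 338] in mural-like cells, 7.11-fold above all other cells, against 7.99 CPM in endothelium-like cells. ADAM19, which cuts neuregulins, was highest in mural-like cells at 71.2 CPM and, among neurons, in glutamatergic-nuclear-like cells at 54.7 CPM [46.7 to 63.8], 2.46-fold above other cells (log2 1.30 ± 0.16). Radial-progenitor-like cells held 5.39 CPM of it. In glutamatergic-nuclear-like cells it stood at 25.9 CPM at E6 and 72.0 CPM at E7, and in the granule lineage at 10.6 CPM in dividing and 44.5 CPM in non-dividing cells. The glutamatergic-nuclear-like clusters differed in their mix of E6 and E7 cells, so stage and cluster cannot be told apart for ADAM19.

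ADAM33 reached 19.1 CPM in mural-like and 10.5 CPM [7.79 to 13.8] in PAX2-interneuron-like cells, the latter from 50 UMIs. That ratio of 2.59-fold over other cells turned around under the gate that was tried first, where the log2 value was -0.34. ADAM28, a metalloprotease of lymphoid cells in mammals, stood at 294 CPM [228 to 374] in microglia-like cells. Of its 99 UMIs, 67 were in 23 of the 69 microglia-like cells, 1 in Purkinje-like and 2 in glutamatergic-nuclear-like cells, and none in the other 5 classes, while 20 were in cells of several gates and 9 in cells of no gate. Without its top cell, which held 14 UMIs, the microglia-like level was 236 CPM.

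Of the procollagen and reelin proteases, with stages pooled, ADAMTS2 and ADAMTS3 were highest in the granule lineage and ADAMTS14 in mural-like cells. All 3 remove the amino-terminal propeptide of fibrillar collagens, and ADAMTS3 also cuts reelin and helps to activate VEGFC. ADAMTS2 (chromosome 13, 13207810 to 13444026) stood at 352 CPM [334 to 370] in granule-lineage-like cells, with 388 CPM in sublibrary 1 and 318 CPM in sublibrary 2, and 63.4 CPM in all other cells. Glutamatergic-nuclear-like cells were next at 97.4 CPM, and the remaining gated classes lay between 9.98 and 30.6 CPM. The granule lineage was 5.55-fold above other cells (log2 2.47 ± 0.19).

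No member past the minimum changed more with stage than ADAMTS2. Over all cells its levels in stage order were 13.5 CPM [11.3 to 16.1], 58.2, 121 and 203 CPM [195 to 212], and the wells did not overlap between any 2 stages. The E6 wells lay between 9.09 and 15.5 CPM and the E9 wells between 192 and 210 CPM. The log2 change was 3.91, with 4.32 in sublibrary 1 and 3.64 in sublibrary 2. In a pool of all cells, more cells of a class and more transcript per cell cannot be told apart, and granule-lineage-like cells numbered 23 at E6 and 305 at E9.

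Within classes ADAMTS2 was also higher at the later stages. In the granule lineage it went over E7, E8 and E9 from 260 CPM [238 to 283] to 450 and 461 CPM [426 to 499], which is under 2-fold. Glutamatergic-nuclear-like cells had 33.8 CPM [22.8 to 48.3] at E6 and 123 CPM [107 to 141] at E7, log2 1.86 ± 0.52. The clusters of that name differed in their mix of E6 and E7 cells, so stage and cluster cannot be told apart there. Radial-progenitor-like cells had 5.09, 21.6, 37.6 and 80.1 CPM from E6 to E9, the first of these from 4 UMIs.

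ADAMTS3 (chromosome 4, 49978110 to 50110174) stood at 257 CPM in granule-lineage-like, 185 CPM in Purkinje-like and 180 CPM in PAX2-interneuron-like cells. These class levels were averages over stages that differed, and their order was not the same at E9. Relative to other cells ADAMTS3 was lower in glutamatergic-nuclear-like cells, at log2 -0.60, and in mural-like and radial-progenitor-like cells, at -0.71 and -0.96. It was lowest in endothelium-like cells, at -1.87, and microglia-like cells, at -2.41 from 7 UMIs. The erythroid-like background read log2 0.92, above the 0.69 of the granule lineage. By stage over all cells it stood at 91.8, 144, 231 and 296 CPM, with wells from 86.0 to 96.3 at E6 and from 279 to 303 at E9. In Purkinje-like cells its stage levels were 127, 166, 421 and 708 CPM, with [108 to 149] for the first and [621 to 803] for the last. The log2 change there was 2.48, with 2.06 and 2.90 in the 2 sublibraries, and it rests on 55 Purkinje-like cells at E9. Of 286 Purkinje-like cells at E6, 257 lay in cluster 3. The E9 cells lay mainly in cluster 20, also Purkinje-like, and the unnamed cluster 18, with 16 and 15 cells. Stage and cluster therefore cannot be told apart for ADAMTS3, nor for the other members followed by stage in Purkinje-like cells.

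PAX2-interneuron-like cells had 81.4, 120, 306 and 300 CPM of ADAMTS3 in stage order, log2 1.88, with 2.72 and 1.25 in the sublibraries. Here too the cells of E6 and E9 lay mostly in different clusters, so stage and cluster cannot be told apart. The granule lineage had 292 CPM at E7 and 241 CPM at E9, and the difference from the other neurons was not tested. At E9 its level was below those of PAX2-interneuron-like and Purkinje-like cells. RELN, the substrate, was highest in the granule lineage, where it stood at 1909, 2800 and 2703 CPM from E7 to E9. ADAMTS14 (chromosome 6, 12257876 to 12278451) stood at 352 CPM [321 to 386] in mural-like and 301 CPM [268 to 337] in endothelium-like cells, with overlapping intervals, and at 12.8 CPM in Purkinje-like cells.

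Of the hyalectan-cleaving proteases, ADAMTS9, ADAMTS1 and ADAMTS5 were highest in mural-like cells. ADAMTS9 (chromosome 12, 13915026 to 13980424), a versican-cleaving protease, stood at 689 CPM [645 to 736] in mural-like cells, 18.5-fold above other cells (log2 4.21 ± 0.03), and at 374 CPM [337 to 414] in endothelium-like cells, 8.83-fold above other cells. In mural-like cells its level was 852, 522, 769 and 811 CPM from E6 to E9, and in endothelium-like cells 378, 355, 402 and 359 CPM. These stage levels rest on few cells, 15 mural-like ones at E6 and, in stage order, 7, 14, 35 and 19 endothelium-like ones. Over all cells ADAMTS9 was at 33.8 and 32.2 CPM at E6 and E7 and at 92.5 and 104 CPM at E8 and E9. Mural-like cells numbered 15 at E6 and 90 at E9, and the part of this cell mix in the all-cell values was not tested.

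ADAMTS1 and ADAMTS5, which cut aggrecan and versican, shared this distribution. ADAMTS1 stood at 71.2 CPM [57.5 to 87.2] in mural-like and 46.9 CPM [34.5 to 62.4] in endothelium-like cells against at most 7.65 CPM in the neural classes. ADAMTS5 stood at 113 CPM [95.8 to 133] and 62.9 CPM in the same classes. The genes lie next to each other on chromosome 1, with 26.9 kb and no annotated gene between them. In the granule lineage ADAMTS5 was 3.13-fold higher in dividing than in non-dividing cells, with intervals of 38.7 to 63.6 and 11.0 to 22.4 CPM, log2 1.65 ± 0.02.

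ADAMTS1 was 3.44-fold higher at E9 than at E6 over all cells, from 4.87 CPM with wells of 2.91 to 6.08, to 16.7 CPM with wells of 11.6 to 21.8. Its log2 change was 1.47 in sublibrary 1 and 2.25 in sublibrary 2. ADAMTS5 did not pass 2-fold over all cells, at 25.6 and 20.6 CPM, but it was lower at later stages in 2 classes. It went from 52.8 CPM at E7 to 9.57 CPM at E9 in the granule lineage (log2 -2.46, -2.45 and -2.44 in the sublibraries), and from 48.4 CPM at E6 to 18.4 CPM at E9 in radial-progenitor-like cells (log2 -1.40 ± 0.40).

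ADAMTS20, a relative of ADAMTS9, had its highest level in neural classes, with 119 CPM in radial-progenitor-like and 71.4 CPM in granule-lineage-like cells against 16.2 CPM in Purkinje-like cells. ADAMTS4, an aggrecan-cleaving protease, had 19 of its 88 UMIs in mural-like cells. Of the 16 UMIs of ADAM8, a leukocyte sheddase, 6 were in mural-like cells, and ADAMTS18, ADAM20L and ADAMTSL5 were too low to place.

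ADAMTS8 and ADAMTS15 were concentrated in few cells. These proteoglycan-cleaving proteases lie side by side on chromosome 24, at 1710248 to 1727215 and 1731424 to 1743164, with 4.21 kb and no annotated gene between them. Of 560 ADAMTS8 UMIs, 337 came from 10 cells, and 1 E7 cell of 109481 UMIs held 148 of them and 54 of the 219 ADAMTS15 UMIs. In all, 27 cells had a UMI of both genes, out of 152 with ADAMTS8 and 87 with ADAMTS15.

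Of the 29 clusters, cluster 26 held 71.1% of the ADAMTS8 UMIs and 68.5% of the ADAMTS15 UMIs in 58 cells. ADAMTS8 stood there at 655 CPM [592 to 723] against 1.61 CPM in all other cells, and ADAMTS15 at 247 CPM [209 to 290] against 0.686 CPM. Without the top cell the levels were 502 and 193 CPM. The cluster held 31 cells of E7, 10 of E8, 17 of E9 and none of E6, and 24 and 34 cells by sublibrary. Its leading genes other than ADAM genes were RSPO1, COL14A1, CFTR, WNT3A and WNT9A. Among roof plate and choroid plexus markers MSX2 was at 67.5 CPM against 2.48 in other cells and RSPO2 at 72.4 against 18.9. WNT1 stood at 6.58 CPM against 1.68 from 4 UMIs, MSX1 had 1 UMI, KCNJ13 had none, and FOLR1 had none in any cell. The cluster was left without a name, since a cluster under 100 cells needed 50% of its cells in 1 gate. The gate most often met, the radial-progenitor-like one, held 11 of 58.

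**Figure D3:**
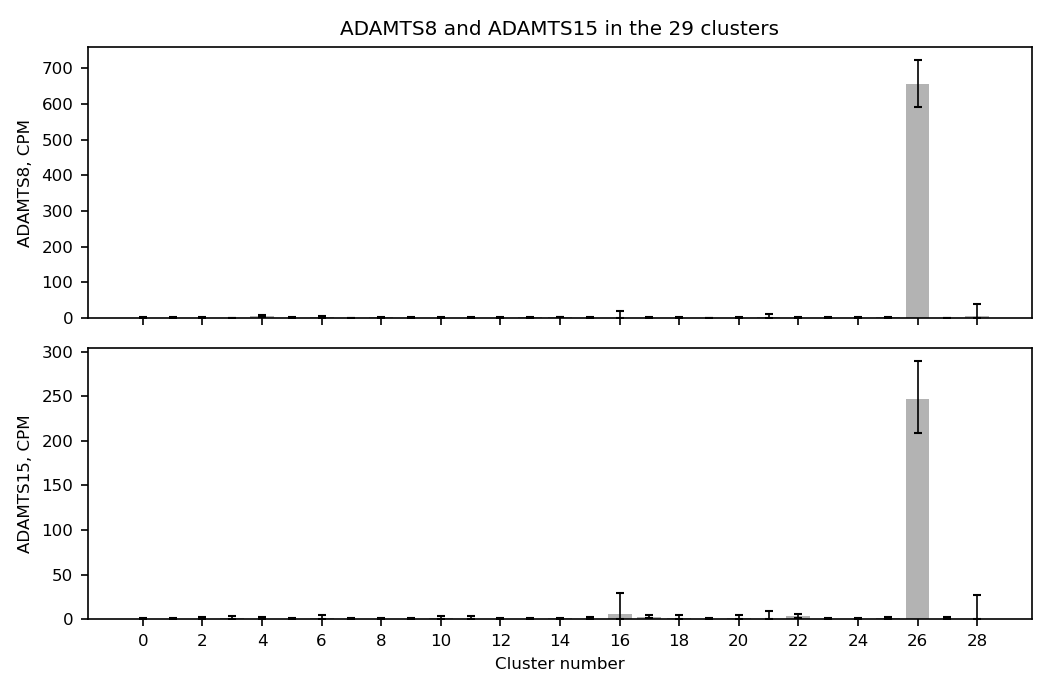
Bars give the CPM of ADAMTS8 (top) and ADAMTS15 (bottom) in each of the 29 clusters, with 95% Poisson intervals. Cluster 26 stands alone for both, at 655 and 247 CPM.

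Over all cells ADAMTS8 read 0.541, 6.52, 1.49 and 7.06 CPM from E6 to E9, and without the 10 cells that held most of it 0.541, 2.12, 1.49 and 5.04 CPM. ADAMTS15 read 0.433, 2.62, 1.39 and 1.26 CPM, and its change from E6 to E9 was log2 0.24 in sublibrary 1 and 1.44 in sublibrary 2, so it passed 2-fold in 1 sublibrary only.

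In radial-progenitor-like cells 9 of 29 members were at least 2-fold above other cells, beside 10.4% of all genes, and 7 were at least 2-fold lower, beside 10.1%. ADAMTS10 (chromosome 28, 2184472 to 2232410), which acts on fibrillin microfibrils, stood at 270 CPM [259 to 281], with 273 and 267 CPM in the sublibraries, against 60.3 CPM in other cells. ADAMTS17 (chromosome 10, 17121687 to 17286732), whose loss in human gives a connective tissue disorder like that of ADAMTS10, stood at 254 CPM [243 to 265] against 74.1 CPM, and ADAMTS7, which cuts cartilage matrix proteins, at 114 CPM [106 to 121] against 32.6 CPM. These are 4.47-fold, 3.42-fold and 3.49-fold ratios, with log2 SDs of 0.06, 0.21 and 0.13.

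The other 6 were ADAM12, ADAMTS6, ADAMTS8, ADAMTS12, ADAMTS14 and ADAMTS20, with log2 ratios from 1.01 to 1.48. ADAM12, ADAMTS12 and ADAMTS14 had higher levels in the granule lineage or in mural-like cells. ADAMTS8 rests on few cells, since 80 of its 100 UMIs in this class came from 11 cells of cluster 26. Outside that cluster the radial-progenitor-like cells held 20 UMIs of ADAMTS8, or 2.53 CPM [1.55 to 3.91], beside 1.53 CPM in all other cells outside it. ADAMTS6, a relative of ADAMTS10, stood at 150 CPM in radial-progenitor-like and 111 CPM in granule-lineage-like cells against 14.3 CPM in Purkinje-like cells. ADAMTS10 also had a high level in microglia-like cells, at 356 CPM [283 to 442] from 81 UMIs in 41 of 69 cells, and was lowest in glutamatergic-nuclear-like cells at 5.34 CPM.

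Purkinje-like cells had 15 of 29 members at least 2-fold below other cells, beside 16.9% of all genes, and 1 above, beside 2.01%. PAX2-interneuron-like cells had 10 of 28 lower, beside 9.9%, and 1 higher, beside 2.35%, and glutamatergic-nuclear-like cells 9 of 25 lower, beside 9.33%, and 1 higher, beside 3.43%. The granule lineage had 5 of 28 lower, beside 6.76%, and 3 higher, beside 4.52%, namely ADAMTS2, ADAMTSL3 and ADAM12. The 5 members lowest in Purkinje-like relative to other cells were ADAMTS10, ADAMTS7, ADAMTS12, ADAMTS8 and ADAMTS6, with log2 ratios from -3.09 to -2.50, and all 5 were among the 9 of the radial-progenitor-like cells. Because each class is part of the other's comparison cells, these directions are not independent.

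From E6 to E9, 11 of the 23 members that could be read in radial-progenitor-like cells passed 2-fold. Of these 9 were at least 2-fold higher, beside 11.1% of all genes, and 2 lower, beside 6.71%. ADAMTS10 went from 98.0 CPM [77.4 to 123] to 282, 256 and 373 CPM [331 to 419], log2 1.93 ± 0.47. ADAMTS17 went from 58.6 CPM [42.9 to 78.1] to 242, 444 and 333 CPM [294 to 377], with log2 changes of 3.49 and 1.98 in the sublibraries. ADAMTS14 went from 44.6 CPM [31.0 to 62.0] to 91.7, 129 and 211 CPM [180 to 247], log2 2.25 ± 0.61. The first and last of these intervals did not overlap for any of the 3 genes, and ADAMTS10 and ADAMTS17 had passed 2-fold by E7 in both sublibraries.

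These cells came from different clusters at the 2 stages. Of 115 radial-progenitor-like cells at E6, 55 lay in cluster 7 and 24 in cluster 6, while of 156 at E9 73 lay in cluster 5 and 52 in cluster 8. Cluster 8, with 130 cells of E6 and 143 of E9, was the radial-progenitor-like cluster whose smaller count of the 2 stages was largest. Of these cells 15 of E6 and 52 of E9 had passed the radial-progenitor-like gate. Its leading genes included FOXM1, CENPE, ASPM and CENPF, the last of them 1 of the 4 mitotic genes. In it ADAMTS10 stood at 156 CPM at E6 and 413 CPM at E9, and ADAMTS14 at 17.5 and 197 CPM. ADAMTS17 stood in cluster 8 at 467 CPM at E6 and 381 CPM at E9, a log2 change of -0.29, so its higher level at E9 was not seen there. ADAMTS12 and ADAMTS5 had log2 values of -1.23 and -2.29 in that cluster. ADAMTS2, ADAMTS9 and ADAMTSL3, higher at E9 in the gated class, had 2.56, 2.25 and 2.95 there. ADAMTS19 and ADAMTSL2, also higher in the gated class, had -1.13 and -0.65 there, from 10 and 9 UMIs at E6. ADAMTS8 had no UMI there at E6 and 2 at E9. The count of 11 became 4 with a higher UMI minimum, 3 with cells thinned to 1000 UMIs and 5 with the gate tried first.

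The other 6 higher members were ADAMTS2, ADAMTS8, ADAMTS9, ADAMTS19, ADAMTSL2 and ADAMTSL3. ADAMTS19 passed 2-fold in sublibrary 1, at log2 2.56, and not in sublibrary 2, at log2 0.44. ADAMTS8 had 1 UMI at E6 and 51 at E9, of which 46 came from 6 cells of cluster 26, which held no E6 cell. The 2 lower members were ADAMTS5 and ADAMTS12, and ADAMTS12 went from 99.3 CPM [78.5 to 124] to 47.2 CPM [33.1 to 65.4], with log2 changes of -1.37 in sublibrary 1 and -0.87 in sublibrary 2. From E6 to E8, stages alike in W-linked level, 7 of 20 were higher, beside 8.49%, and 1 lower, beside 8.06%, and ADAMTS10, ADAMTS17, ADAMTS14 and ADAMTS2 were among the 7. From E6 to E7 7 of 22 were higher, beside 9.57%, and none lower, beside 1.62%. From E7 to E9 5 of 23 were higher, beside 4.01%, and 2 lower, beside 7.49%, again ADAMTS5 and ADAMTS12.

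Among the hyalectans, which the hyalectan-cleaving members can cut, ACAN and BCAN were higher at E9 in radial-progenitor-like cells. Of the members past 2-fold in these cells, the hyalectan-cleaving ones were ADAMTS8 and ADAMTS9, which were higher, and ADAMTS5, which was lower. ADAMTS10, ADAMTS17, ADAMTS14 and ADAMTS2 are not in that group. ACAN, aggrecan, had no UMI in 115 radial-progenitor-like cells at E6, which allows up to 3.82 CPM, and its later levels were 48.5, 361 and 759 CPM [698 to 823]. BCAN, brevican, had 22 UMIs at E6 and stood at 43.0 CPM at E7 and 127 CPM at E9, and the inhibitor TIMP4 went from 2.55 CPM, or 2 UMIs, to 73.5 CPM. Cluster 5, led by ACAN, held 1 cell of E6 and 325 of E9 in all, and 73 of the 156 radial-progenitor-like cells of E9. Stage and cluster therefore cannot be told apart for ACAN, BCAN and TIMP4. VCAN, versican, stayed within 1553 and 2775 CPM. NCAN, neurocan, had 48.4, 86.7, 20.6 and 87.9 CPM in stage order, and its log2 change from E6 to E9 was 1.99 in sublibrary 1 and -2.78 in sublibrary 2, so it had no common direction. Of the 26 partner and substrate genes read in this class 10 were at least 2-fold higher, beside 11.1% of all genes, and 2 lower, beside 6.71%.

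**Figure D4:**
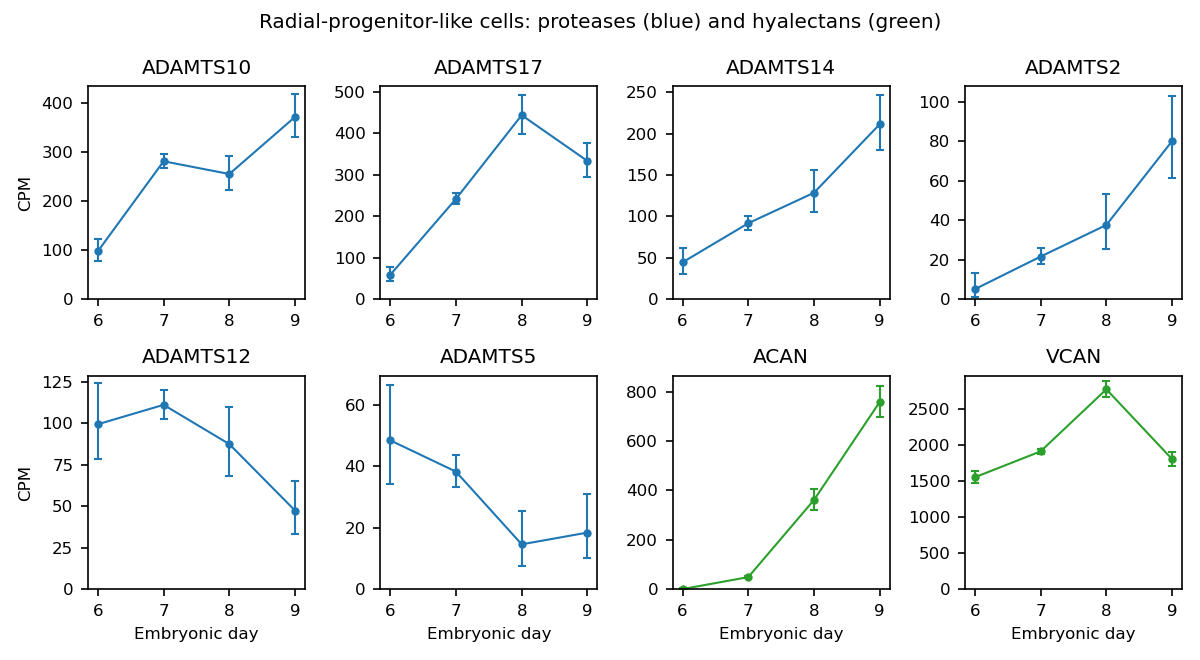
Levels in radial-progenitor-like cells in CPM against embryonic day, with 95% Poisson intervals; proteases are blue and hyalectans green. ADAMTS10, ADAMTS17, ADAMTS14 and ADAMTS2 are higher at E9 than at E6, ADAMTS12 and ADAMTS5 lower, and ACAN goes from 0 to 759 CPM.

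Mural-like cells carried the largest share of members above other cells. At least 2-fold higher were 12 of 27, beside 18.0% of all genes, and lower were 8, beside 20.7%. ADAMTS12 (chromosome Z, 10692168 to 10863128), which cuts cartilage matrix proteins, stood at 374 CPM [342 to 409], with 396 and 354 CPM in the sublibraries, against 37.0 CPM in other cells, or 10.1-fold. Its level in these cells was 426, 350, 395 and 381 CPM from E6 to E9. ADAMTS19, on chromosome Z, was also highest there, at 112 CPM, or 3.13-fold above other cells, beside 91.8 CPM in endothelium-like cells. ADAMTS7 stood at 113 CPM, close to its 114 CPM in radial-progenitor-like cells. ADAMTS13, the von Willebrand factor protease, was highest in mural-like cells at 23.7 CPM and had 2 UMIs in endothelium-like cells, where its substrate VWF stood at 6053 CPM.

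Endothelium-like cells had 8 of 25 members at least 2-fold higher, beside 22.4%, and 11 lower, beside 25.5%. The inhibitors TIMP2 and TIMP3 were highest in mural-like cells, at 62.0 and 707 CPM. Microglia-like cells had 2 of 7 members higher, ADAMTS10 and ADAM10, beside 20.6%, and 3 lower, beside 24.9%.

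ADAMTSL2 (chromosome 17, 7577817 to 7598175), a microfibril-binding protein, was the single member at least 2-fold higher in Purkinje-like cells, at 76.6 CPM [72.0 to 81.4] against 34.3 CPM, with 78.1 and 75.0 CPM in the sublibraries. Its stage levels there were 10.3 CPM [5.33 to 18.0], 83.4, 71.7 and 73.4 CPM [47.5 to 108]. ADAMTSL3 stood at 166 CPM [153 to 179] in granule-lineage-like, 140 CPM in endothelium-like and 88.1 CPM in glutamatergic-nuclear-like cells, and at 4.59 CPM in mural-like cells. ADAMTSL1, on chromosome Z, stood at 35.9 CPM in Purkinje-like cells, where it was at 39.5, 24.2, 215 and 194 CPM from E6 to E9. Its log2 change of 2.29 was 3.44 in sublibrary 1 and 0.88 in sublibrary 2, so it passed 2-fold in 1 of them only. Purkinje-like cells of E6 and of later stages lay mostly in different clusters, so stage and cluster cannot be told apart for ADAMTSL2 and ADAMTSL1.

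ADAM20 read between 23.7 and 76.5 CPM in all classes. Its identity is uncertain, since RefSeq gives ADAM20 as another name of the adjacent gene SYNJ2BP.

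Over all cells 11 of 29 members were at least 2-fold higher at E9 than at E6, beside 16.1% of all genes, and none was 2-fold lower, beside 4.61%. The median log2 change was 0.77 over the 29 members and 0.10 over all genes. From E6 to E8 10 were higher, beside 12.5%, and none lower, beside 6.65%. The 10 were those of the E9 comparison without ADAM12. In 19 members all 3 E9 wells lay above all 3 E6 wells, and in ADAMTS12 and ADAM33 all lay below. No share over all genes is available for these well counts, so they are not read as a trait of the members.

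**Figure D5:**
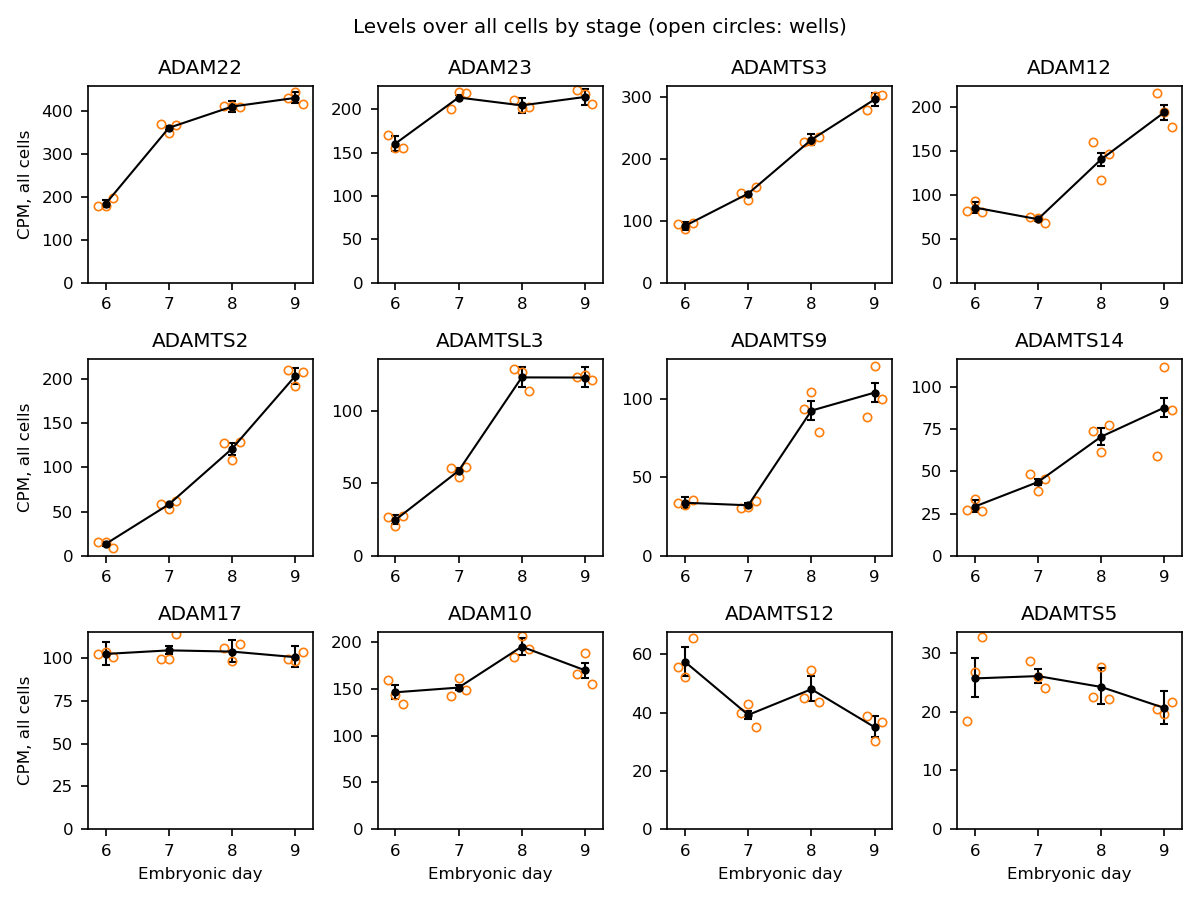
Black points give the CPM over all cells of a stage with 95% Poisson intervals, open circles the 3 wells of that stage, for 12 members. ADAMTS2 goes from 13.5 to 203 CPM and ADAMTS3 from 91.8 to 296 CPM, while ADAM17 stays between 101 and 105 CPM.

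The 5 largest increases were ADAMTS2, ADAMTS8, ADAMTSL3, ADAMTS1 and ADAMTSL2. That of ADAMTS8 rests on few cells, since 55 of its UMIs at E9 came from 9 of 17 cells of cluster 26, which held no E6 cell. ADAMTSL3 stood at 24.8 CPM at E6 and 123 CPM at E9, a 4.95-fold difference (log2 2.31 ± 0.03), with wells of 20.7 to 27.6 and 121 to 124 CPM. ADAMTSL2 went from 9.19 to 47.7, 23.0 and 31.4 CPM, so its highest stage was E7. ADAMTS14 went from 29.2 to 87.8 CPM, although 1 E9 well at 59.1 CPM lay below an E8 well at 77.4.

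At the other end no member passed 2-fold. ADAM33 stood at 3.89 CPM [2.73 to 5.39] at E6 and 2.23 CPM [1.41 to 3.34] at E9, with overlapping intervals, log2 -0.81 ± 0.15. ADAMTS12 stood at 57.4, 39.2, 48.1 and 35.0 CPM, log2 -0.71 ± 0.03. ADAMTS6 (Z) stood at 87.8 and 92.9 CPM and ADAMTS17 at 76.2 and 81.1 CPM, both with overlapping wells. ADAMTS12, ADAMTS6, ADAMTS19 and ADAMTSL1 are Z-linked. Among E7 cells of 4000 or more UMIs, the 3014 without W-linked UMIs exceeded the 3026 with them by log2 0.54, 0.20, 0.48 and 0.23. The median was 0.33 over Z-linked and -0.02 over autosomal genes. A cell without W-linked UMIs need not be male. The part of the sex mix in the stage values of these 4 Z-linked members was not tested. Between E6 and E8, alike in W-linked level, ADAMTS12 stood at 57.4 and 48.1 CPM.

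In Purkinje-like cells 4 of 10 members were at least 2-fold higher at E9 than at E6, beside 8.33% of all genes, and none lower, beside 11.8%. The 4 were ADAMTS3, ADAM12, ADAMTSL1 and ADAMTS19, the last with 31 UMIs at E6 and 79.3 CPM [52.2 to 115] at E9. In PAX2-interneuron-like cells 6 of 12 were higher, beside 11.9%, and none lower, beside 5.66%. The 6 were ADAM12, ADAM19, ADAM22, ADAM23, ADAMTS3 and ADAMTSL3, of which ADAM12 rests on 6 UMIs at E6, ADAM19 on 5 and ADAMTSL3 on 7. Those 3 passed 2-fold in 1 sublibrary each, with log2 values of 0.47 and 1.17 for ADAM12, 0.94 and 1.29 for ADAM19, and 1.41 and 0.45 for ADAMTSL3. From E6 to E8 the counts were 4 of 10 higher, beside 7.63%, and none lower, beside 14.1%, in Purkinje-like cells, and 5 of 10 higher, beside 9.08%, and none lower, beside 5.91%, in PAX2-interneuron-like cells. In both classes stage and cluster make-up cannot be told apart.

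The step from E6 to E7 held 5 of 22 higher members in Purkinje-like cells, beside 10.9%, and none lower, beside 1.93%. These were ADAMTS2, ADAMTS9, ADAMTS10, ADAMTSL2 and ADAMTSL3, and ADAMTS2 had no UMI at E6. In PAX2-interneuron-like cells 2 of 9 were higher, beside 9.58%, and none lower, beside 2.47%. From E7 to E9 1 of 11 was higher in Purkinje-like cells, ADAMTS3, beside 4.35%, and none lower, beside 9.97%. In PAX2-interneuron-like cells 8 of 24 were higher over that step, beside 5.01%, and none lower, beside 9.82%. The 8 were ADAM12, ADAM19, ADAM23, ADAMTS2, ADAMTS3, ADAMTS7, ADAMTS20 and ADAMTSL1, and ADAMTSL1 went from 18.6 to 68.9 CPM with log2 values of 1.52 and 2.18 in the sublibraries.

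In glutamatergic-nuclear-like cells from E6 to E7, 6 of 21 were higher, beside 13.6%, and 2 lower, beside 3.45%. The higher were ADAM11, ADAM19, ADAMTS2, ADAMTS17, ADAMTSL2 and ADAMTSL3. The lower were ADAMTS6, at log2 -2.08 and -0.72 in the sublibraries, and ADAMTS12. Both are Z-linked, and the part of the sex mix in these values was not tested. The glutamatergic-nuclear-like cluster 0 held 461 cells of E6 and 143 of E7, and cluster 25, of the same name, 2 and 304. Stage and cluster therefore cannot be told apart for the members of this comparison. In the granule lineage from E7 to E9, 2 of 24 were higher, ADAM12 and ADAMTS9, beside 4.11%, and 4 lower, ADAMTS5, ADAMTS12, ADAMTS17 and ADAMTS10, beside 9.85%. ADAMTS17 there went from 96.2 CPM [83.2 to 111] to 27.2 CPM [19.2 to 37.5], log2 -3.30 and -0.89 in the sublibraries, and ADAMTS10 had -0.39 and -1.99, so each passed 2-fold in 1 sublibrary only.

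Among radial-progenitor-like cells 1 of 27 was 2-fold higher in dividing cells, ADAMTSL3 at 71.2 against 34.1 CPM, beside 4.4% of all genes, and 1 lower, ADAMTSL1, beside 2.62%, which had log2 values of 0.01 and -1.70 in the sublibraries. Among granule-lineage-like cells 1 of 24 was higher, ADAMTS5, beside 8.14%, and 3 lower, ADAM11, ADAM19 and ADAMTSL1, beside 5.92%. ADAMTSL1 stood there at 7.57 CPM in dividing and 26.6 CPM in non-dividing cells, log2 -1.81 ± 0.01.

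Of 37 partner and substrate genes listed, 32 had an entry and 31 had 100 or more UMIs. From E6 to E9 over all cells 10 of 31 were at least 2-fold higher, beside 16.1% of all genes, and 1 was lower, beside 4.61%. The lower one was VEGFC, a lymphatic growth factor that ADAMTS3 helps to activate, which went from 62.4 to 22.3 CPM, and RELN went from 123 to 1147 CPM.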

How the data were processed

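The authors deposited UMI counts per cell and gene, with a cell table that gives each cell's stage; the submitters' processing notes name Cell Ranger, Seurat and GRCg7b without roles, and no counting settings are given in the sources used here. Whether introns of long genes were counted is therefore unknown, and levels are not compared between genes. Matrix sums equalled the cell table in 100% of cells. Cells needed 500 UMIs, 300 genes and at most 20% mitochondrial counts; doublets were not called, and cells in several gates (median 15064 UMIs) stayed out of classes. Levels are summed counts over all UMIs of the same cells, in CPM computed here. Counts under 3 were raised to 3 in ratios. Genes needed 100 UMIs, and comparisons between stages or dividing states 10 expected UMIs in the smaller pool. Comparisons of a class with other cells needed 30 UMIs as the sum of observed and expected UMIs in the class. Genes high in a class passed that limit more easily, and the same rule held for all genes. A change was read at 2-fold, a range over classes of 50 or more cells at 4-fold. The calls were also run on simulated Poisson counts without variation between cells, clusters or wells, so that run does not measure such variation.

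Members and lists were chosen with earlier results of these data known. A depth-adjusted marker score was tried first; it and the gates used were both viewed beside member levels per class, and the microglia minimum was then lowered from 3 to 2 markers to pass 50 cells. Purkinje-like cells needed SKOR2 and 2 of 6 further markers, granule-lineage-like cells PAX6 and 1 of 6, and radial-progenitor-like cells 4 of 7. PAX2-interneuron-like cells needed 2 UMIs of PAX2 and a GABA gene, and glutamatergic-nuclear-like cells SLC17A6, MEIS2 and 1 of 5 factors. Endothelium-like cells needed 3 of 8, mural-like cells 3 of 11 and erythroid-like cells 2 of 5 markers. Clusters came from scanpy 1.11.5 (2000 variable genes without ADAM genes, 30 components, 15 neighbours, Leiden resolution 1). The W-linked gene list, the E8 comparison and the dividing split were added after seeing the data. Genes named follow a rule: the 8 members with most UMIs, up to 3 per class by ratio over other cells (30 or more UMIs, 2-fold), and the 5 largest changes each way; further names were chosen after their values were seen. Coordinates are RefSeq GRCg7b, matched by symbol for 34 of 35 members.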

Additional observations from a re-analysis of the deposited data

Results flagged for a closer look

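The log2 values of ADAM10 had opposite signs in 2 classes, in both sublibraries of each. From E6 to E9 its log2 change was -0.80 in PAX2-interneuron-like cells, from 155 CPM [112 to 210] to 89.2 CPM [70.6 to 111], and 0.11 in radial-progenitor-like cells, from 202 CPM [172 to 236] to 219 CPM [187 to 255]. The difference between the classes was not tested, neither change reached 2-fold, and the radial-progenitor-like intervals overlap, so no change was detectable there. In both classes the cells of E6 and E9 lay mostly in different clusters, so stage and cluster cannot be told apart.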

How the results depend on the processing

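No paired analysis was possible because the sublibraries are splits of 1 group. The 29 members past the minimum were the same number without either sublibrary, and the 27 members with a 4-fold range became 23 to 29 under every alternative except the 5 neural classes, at 18. The 11 changed members over all cells became 9 to 16, and 11 to 12 without either sublibrary, the 9 (7 higher, 2 lower) when the lowest E9 well was set against the highest E6 well. For the comparisons by wells no share over all genes is available. Within classes the 21 changes from E6 to E9 became 32, 8 and 8 with a lower UMI minimum, a higher one and cells thinned to 1000 UMIs. The lower minimum also lowered the expected UMIs to 5 and the higher one raised them to 50, so different numbers of members were read. Of these the Purkinje-like 4 became 9, 1 and 2, the PAX2-interneuron-like 6 became 12, 3 and 3, and the radial-progenitor-like 11 became 11, 4 and 3. With clusters made without ADAM genes the Purkinje-like count was 10 and the PAX2-interneuron-like 13, and with the first gate tried the radial-progenitor-like count was 5. In cluster 8, the radial-progenitor-like cluster whose smaller count of E6 and E9 cells was largest, chosen after seeing the data, it was 7. Without either sublibrary the radial-progenitor-like count was 9 to 11, and the Purkinje-like and PAX2-interneuron-like comparisons could not be made, since a stage fell under 50 cells; the same held for the stricter gate and the first gate. Of 198 values for named pairs of member and class 183 kept a 2-fold excess and 1 turned around, ADAM33 in PAX2-interneuron-like cells at -0.34 with the first gate. The pairs had been chosen for a 2-fold excess in these same data, and every setting reused these data, so the 183 are not independent support. ADAM28 from E6 to E9 turned to -0.90 without its 10 top cells, -0.12 with equal weight over 3 classes and -0.49 for the lowest against the highest well. Classes of 75 and 69 cells and the 55 Purkinje-like cells at E9 limit the depth.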

Other observations

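Cluster 28, 39 cells of which 32 were of E9, was led by KCNQ5, BCAN, SOX10 and UGT8 among genes other than ADAM genes, and no gate named it. ADAMTS20 stood there at 419 CPM [318 to 542] against 51.2 CPM in all other cells, from 58 UMIs in 23 cells. ADAMTSL2 stood at 390 CPM [293 to 509] against 39.6 CPM, from 54 UMIs in 19 cells. Without the top cell these levels were 364 and 342 CPM. Both were above the levels of ADAMTS20 and ADAMTSL2 in each of the 8 gated classes, and the cluster was singled out after its values were seen.

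In cluster 26, the cells of ADAMTS8 and ADAMTS15, ADAMTS10 stood at 286 CPM [245 to 332] against 75.5 CPM in all other cells, ADAMTS3 at 443 CPM [391 to 499] against 162 CPM and ADAMTS1 at 42.8 CPM against 9.36 CPM. ADAMTS8 stood at 682 CPM in its E7 cells, 109 CPM in its E8 cells from 4 UMIs, and 747 CPM in its E9 cells.

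ADAMTS13 and ADAMTSL2 lie 45.9 kb apart on chromosome 17, with 4 annotated genes between them. ADAMTS13 was highest in mural-like and ADAMTSL2 in Purkinje-like cells. ADAMTS1 and ADAMTS5 were both highest in mural-like cells, and ADAMTS8 and ADAMTS15 both in cluster 26.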
